A study of Saccharomyces cerevisiae with 9 samples.

Results

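Transcript levels of RM11-1a, a yeast derived from a vineyard isolate, were compared with those of BY4716, a laboratory strain of Saccharomyces cerevisiae. The comparison used 6 of the 9 two-colour arrays of the series, 3 for each strain, chosen by strain label, and 5865 of the 6256 genes on the array were tested. Both strains were grown in yeast nitrogen base with 20 g/L glucose, 100 mg/L leucine, 100 mg/L lysine and 20 mg/L uracil. On every array the strain's RNA carried Cy5 and was hybridised together with a common reference in Cy3, a pool of RNA of the same strains from glucose and from ethanol cultures. The values below are log2 ratios of strain over reference, and differences are RM11-1a minus BY4716 on the log2 scale with the standard error of the fit (n = 3 arrays each). A gene was called when its limma p-value, adjusted by Benjamini-Hochberg over all genes tested, was under 0.05, and "rose" and "fell" refer to RM11-1a relative to BY4716. Another pair with 1 array per strain was set beside them: YLK806, which is RM11-1a carrying the BY allele of SAL1, and YLK804, which is the laboratory strain BY4724 carrying the RM allele of SAL1, in the same medium. For those arrays the labels disagree on the dyes: the source names, followed here, put the strain in Cy5, and the strain field puts it in Cy3.

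Natural and laboratory strains of budding yeast differ in DNA sequence at many sites, and transcript levels can follow differences in a gene's own regulatory region or in a regulator that acts on many genes at once. Yeast senses inositol, phosphate, nitrogen, metals and sugars, and adjusts the genes for their uptake and use. Genes near chromosome ends form families whose copy number and sequence vary between strains.

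The strain markers went with the labels. URA3 had log2 ratios of -2.42, -2.42 and -2.63 in RM11-1a, against 1.40, 1.38 and 1.35 in BY4716 and LEU2 had -2.79, -2.71 and -2.85 in RM11-1a, against 1.23, 1.31 and 1.18 in BY4716, so that both were low on every RM11-1a array. LEU2 was not well above background on any of them and was at least 16.3-fold lower, a bound given here as the smaller of the fold between the log ratios and the fold between the Cy5 signals with a floor at the dimmest well-measured signal of each array, and URA3 was well above background on 1, while LYS2, with 0.98, 0.99 and 0.91 in RM11-1a, against -3.31, -3.02 and -3.13 in BY4716, was low on every BY4716 array. The 7 genes specific to mating type a were all higher in RM11-1a and the 8 specific to mating type alpha were all lower. In the strain channel, 89.5% to 91.7% of genes passed the scanner's background test on the 6 arrays, with median signals of 237 to 284 units in RM11-1a and 240 to 336 units in BY4716. The standard deviation of the gene-wise difference between arrays was 0.133 to 0.180 among RM11-1a arrays and 0.0822 to 0.100 among BY4716 arrays, so the RM11-1a arrays varied more. BY4716 arrays 7 and 11 shared a slide and a scan day, BY4716 array 9 and RM11-1a array 9 shared another scan day, and the labels do not say whether the replicates were separate cultures, and p-values therefore cover the spread between arrays and may not cover that between cultures. With scan day as a block, the difference of the strains was that of RM11-1a array 9 from BY4716 array 9. The residual spread of that fit came only from BY4716 arrays 7 and 11 of 1 slide. Calls made or lost with that block can therefore not be relied on, and its values serve as sizes only. Each gene had 1 probe and its match to the RM11-1a sequence was not examined, so less transcript and weaker hybridisation cannot be told apart.

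The strains differed at most genes, and for most of them by little. Of the 5865 genes tested, 3696 were called (63.0%), 1941 higher in RM11-1a (33.1%) and 1755 lower (29.9%). For 4104 genes (70.0%), the highest array of one strain was below the lowest array of the other. A difference of at least 2-fold was called for 335 genes (5.71%), 220 higher and 115 lower, and of at least 4-fold for 93 genes, 40 higher and 53 lower. At the other end, 2920 of the called genes (79.0%) differed by less than 1.5-fold, with a median absolute difference of 0.31 over called genes. The median difference of all genes tested was 0.006. These shares are the background against which the counts of each gene group below are to be read.

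The largest rise outside mating type, respiration and stress was that of INO1, the inositol-3-phosphate synthase that makes inositol from glucose 6-phosphate. INO1 had log2 ratios of 1.16, 1.17 and 1.35 in RM11-1a, against -3.66, -3.68 and -3.39 in BY4716, a difference of 4.81 ± 0.09 (limma adjusted p = 1.99e-08), or 28-fold. The strains were far apart and their replicates close together. OPI3, a phospholipid methyltransferase of phosphatidylcholine synthesis, followed with 0.67, 0.79 and 0.80 in RM11-1a, against -0.69, -0.72 and -0.57 in BY4716, a difference of 1.42 ± 0.05. CHO1, the phosphatidylserine synthase, had 0.83, 0.82 and 0.83 in RM11-1a, against -0.34, -0.34 and -0.28 in BY4716, a difference of 1.15 ± 0.03. For both genes, every RM11-1a array was above every BY4716 array. ITR1, the main inositol transporter (difference 0.98 ± 0.05), PSD1, a phosphatidylserine decarboxylase (0.78 ± 0.04), and CDS1, which makes CDP-diacylglycerol (0.75 ± 0.04), were also higher in RM11-1a. All of these are known targets of the Ino2-Ino4 activator, whose activity the repressor Opi1 holds back when inositol is plentiful. The 3 regulators themselves differed less: INO2 by 0.19 ± 0.05 (0.29 with scan day as a block), INO4 by 0.34 ± 0.07 and OPI1 by 0.44 ± 0.04. In all, 17 of 24 genes of inositol and phospholipid synthesis rose and 4 fell (median difference 0.28). The second inositol transporter, ITR2, was among those that fell (-0.21 ± 0.04), a call lost with scan day as a block (-0.11). In YLK806 minus YLK804, INO1 differed by 3.95, OPI3 by 1.06 and CHO1 by 0.89.

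**Figure D1:**
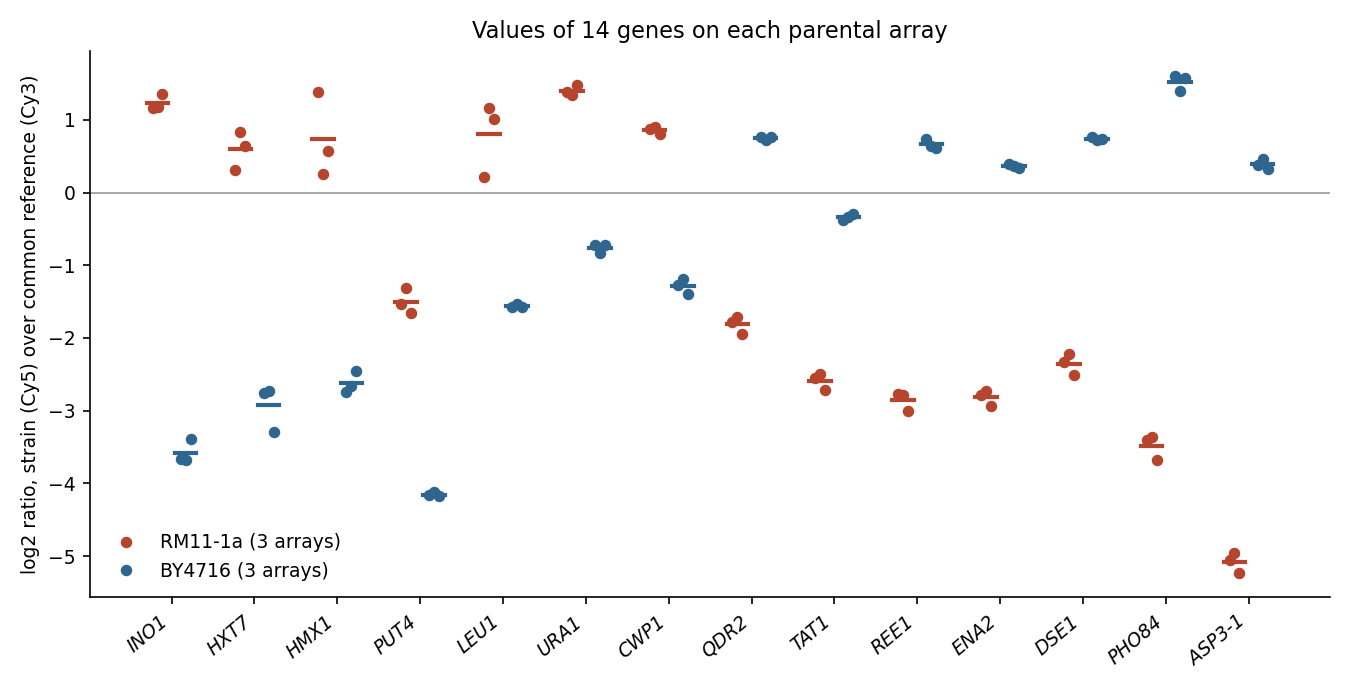
Log2 ratios of strain over common reference on each array for 14 genes, with points for the 3 arrays of RM11-1a and the 3 arrays of BY4716. INO1 lies between 1.16 and 1.35 in RM11-1a and far below 0 in BY4716, and PHO84 shows the opposite arrangement.

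In the other lipid lists rises outnumbered falls, but the medians of the sphingolipid (0.08) and fatty acid (0.07) lists were small. Of the sphingolipid genes 53.8% were called, against 63.0% of all genes tested. The fatty acid median was -0.05 in YLK806 minus YLK804. In ergosterol synthesis and uptake, 21 of 30 genes rose and 3 fell (median difference 0.48). ERG11, the lanosterol demethylase, rose by 0.96 ± 0.09, ERG13, the HMG-CoA synthase, by 0.98 ± 0.04, and ERG5, the sterol desaturase, by 0.91 ± 0.07. ERG1, the squalene epoxidase, was not called (0.03 ± 0.11, limma adjusted p = 0.82). The 3 genes that fell serve uptake, its control and storage: AUS1, a plasma membrane sterol importer, had -0.61, -0.55 and -0.67 in RM11-1a, against 0.53, 0.51 and 0.61 in BY4716, a difference of -1.16 ± 0.05. UPC2, the sterol-sensing transcription factor, fell by 0.36 ± 0.03, and ARE1, a sterol acyltransferase, fell by 0.18 ± 0.06, a call lost with scan day as a block (-0.15) or without any one BY4716 array (-0.17 without array 11, -0.20 without array 7 and -0.18 without array 9). ARE2, the main sterol acyltransferase, rose by 0.86 ± 0.03. The sphingolipid regulators ORM1 and ORM2, which both restrain serine palmitoyltransferase, moved in opposite directions. ORM2 had 0.63, 0.59 and 0.59 in RM11-1a, against -0.65, -0.56 and -0.59 in BY4716, a difference of 1.20 ± 0.04. ORM1 had -0.11, -0.20 and -0.15 in RM11-1a, against 0.67, 0.74 and 0.66 in BY4716, a difference of -0.84 ± 0.04. SUR1, which adds mannose to complex sphingolipids, rose by 1.19 ± 0.05, and 10 of 26 sphingolipid genes rose against 4 that fell. In fatty acid synthesis 8 rose and 5 fell of 17: the desaturase OLE1 rose by 0.68 ± 0.07, and the acyl-CoA synthetases FAA3 (-0.78 ± 0.06) and FAA4 (-0.47 ± 0.05) fell.

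Most called genes of phosphate uptake and storage fell. PHO84, the high-affinity phosphate transporter, had log2 ratios of -3.40, -3.36 and -3.68 in RM11-1a, against 1.61, 1.39 and 1.58 in BY4716, a difference of -5.01 ± 0.09 (limma adjusted p = 2.2e-08), or 32.2-fold lower in RM11-1a. PHO89, the sodium-phosphate cotransporter, had -1.31, -1.42 and -1.37 in RM11-1a, against 0.29, 0.25 and 0.38 in BY4716, a difference of -1.67 ± 0.05. SPL2, an inhibitor of low-affinity phosphate uptake, was not well above background on any RM11-1a array and was at least 10.1-fold lower there. No array of one strain reached the other strain for these genes, as for 70.0% of all genes tested. The low-affinity transporters PHO87 (0.05 ± 0.03), PHO90 (-0.12 ± 0.05) and PHO91 (-0.05 ± 0.04) were not called. GIT1, the permease for glycerophosphoinositol, went the other way, with -1.10, -0.58 and -0.78 in RM11-1a, against -1.63, -1.42 and -1.60 in BY4716, a difference of 0.73 ± 0.13. Downstream of transport, limma called none of 14 phosphatase and polyphosphate genes higher (0 also at an unadjusted p under 0.05) and 12 lower (median difference -0.86). The acid phosphatases PHO12 (-1.27 ± 0.10), PHO11 (-0.95 ± 0.09) and PHO5 (-0.64 ± 0.05) were among them, although PHO11 and PHO12 are near-identical and their probes may share signal. The vacuolar transporter chaperone complex, which makes polyphosphate, fell at every subunit: VTC3 by 1.06 ± 0.06, VTC2 by 0.99 ± 0.04, VTC4 by 0.92 ± 0.05, VTC1 by 0.87 ± 0.04 and VTC5 by 0.85 ± 0.07. The polyphosphatases PPN1 (-0.11 ± 0.09) and PPX1 (0.02 ± 0.07) were not called. Among the regulators, PHO81, the cyclin-dependent kinase inhibitor of the pathway, had -0.54, -0.50 and -0.57 in RM11-1a, against 0.28, 0.23 and 0.33 in BY4716, a difference of -0.82 ± 0.04. PHO4, its transcription factor, fell by 0.54 ± 0.06, and the cyclin PHO80 (0.06 ± 0.05) was not called. In the other pair PHO84 differed by -4.37, SPL2 by -2.35 and PHO89 by -0.54. The difference between the pairs was called for PHO89 (-1.13 ± 0.09, limma adjusted p = 0.00106), whose fall was smaller in the YLK pair.

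**Figure D2:**
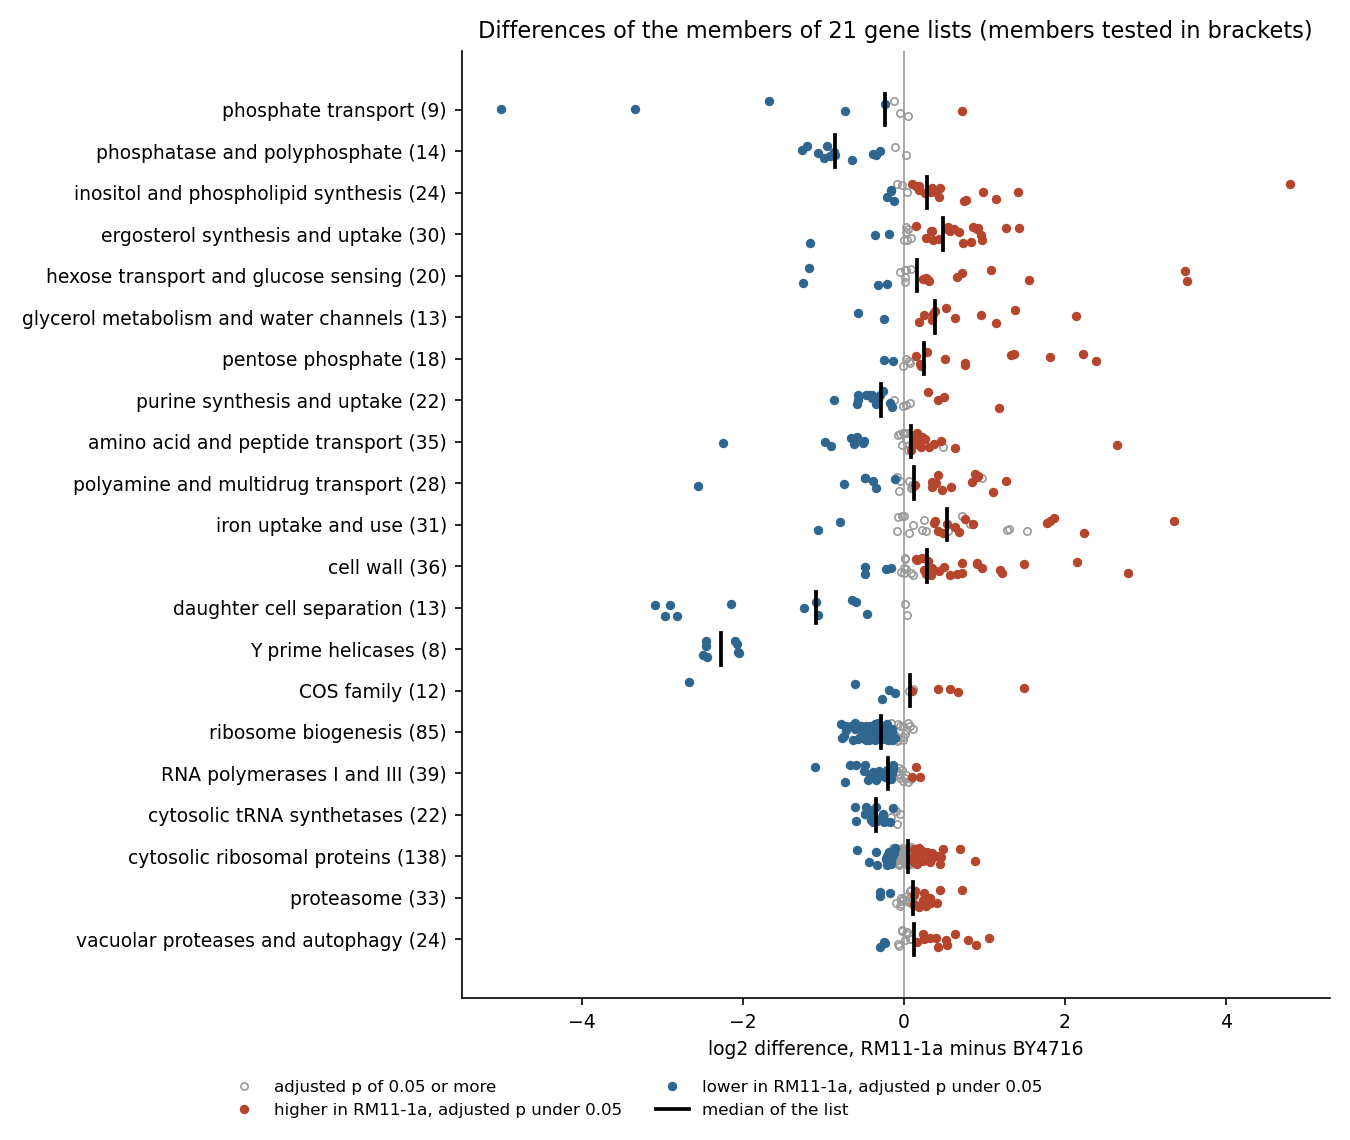
Log2 differences, RM11-1a minus BY4716, of the tested members of 21 gene lists, 1 point per gene, filled where called, with a bar at the list's median. The daughter cell separation and Y prime lists have medians of -1.09 and -2.27, while the other medians lie within 1 log2 unit of 0.

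Several sugar transporter genes were higher in RM11-1a and a few were lower. The near-identical high-affinity hexose transporter genes HXT6 and HXT7, whose probes may share signal, were higher in RM11-1a, HXT7 with 0.31, 0.83 and 0.64 in RM11-1a, against -2.75, -2.74 and -3.29 in BY4716, a difference of 3.52 ± 0.18. HXT2, another high-affinity transporter, rose by 1.08 ± 0.10, HXT4 by 0.72 ± 0.09 and HXT5 by 1.56 ± 0.13. HXT1, the low-affinity transporter of high-glucose cells, had 0.40, 0.40 and 0.26 in RM11-1a, against 1.47, 1.52 and 1.61 in BY4716, a difference of -1.18 ± 0.05. HXT3, also low-affinity, was not called (0.08 ± 0.05). Among the glucose-sensing genes, MIG3, a glucose-dependent repressor, had -0.17, -0.24 and -0.20 in RM11-1a, against 0.97, 1.06 and 1.12 in BY4716, a difference of -1.25 ± 0.05, STD1 fell by 0.33 ± 0.04, and its paralogue MTH1 rose by 0.66 ± 0.07. Over the whole list 10 of 20 rose and 4 fell. The hexokinases divided: HXK2, the enzyme of glucose-grown cells, had -0.07, -0.37 and -0.41 in RM11-1a, against 0.79, 0.63 and 0.75 in BY4716, a difference of -1.01 ± 0.09, and HXK1 had 0.16, 0.57 and 0.41 in RM11-1a, against -1.16, -1.14 and -1.70 in BY4716, a difference of 1.72 ± 0.16. For other sugars, the maltose permease MAL31 rose by 1.47 ± 0.05, its activator MAL33 by 1.38 ± 0.07 and the isomaltase IMA1 by 1.11 ± 0.04, while SUC2, the invertase, fell by 0.85 ± 0.08. These lie among 7 rises and 7 falls in 19 genes of disaccharide and galactose use, which are repressed in glucose.

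Genes of the side branches of glycolysis were mostly higher in RM11-1a. In glycerol metabolism 11 of 13 genes rose, with a median of 0.38. GCY1, a glycerol dehydrogenase, had 0.29, 0.60 and 0.48 in RM11-1a, against -1.55, -1.69 and -1.81 in BY4716, a difference of 2.14 ± 0.09. GUT2, the mitochondrial glycerol 3-phosphate dehydrogenase, rose by 1.39 ± 0.08, the water channel AQY1 by 1.15 ± 0.11, and GPD1, the first enzyme of glycerol synthesis, by 0.96 ± 0.05, whereas GPP1 (-0.57 ± 0.05) and GPD2 (-0.25 ± 0.04) fell. In the pentose phosphate pathway, which supplies NADPH and ribose, 12 of 18 genes rose and 2 fell. SOL3, a 6-phosphogluconolactonase, had 1.1, 1.13 and 1.08 in RM11-1a, against -0.27, -0.26 and -0.26 in BY4716, a difference of 1.37 ± 0.03, and the oxidative dehydrogenases ZWF1 (0.76 ± 0.08) and GND1 (0.76 ± 0.04) rose less. The minor paralogues GND2, NQM1 and TKL2 rose by 2.39 ± 0.17, 2.23 ± 0.25 and 1.82 ± 0.21, with wide spread among RM11-1a arrays: NQM1 had -2.17, -1.06 and -1.33 in RM11-1a, against -3.79, -3.66 and -3.80 in BY4716. Glycolysis and fermentation showed 12 rises and 8 falls of 34, with a median of -0.01; enzymes of the main line such as PGI1 (-0.46 ± 0.05), ENO2 (-0.41 ± 0.05) and CDC19, pyruvate kinase (-0.32 ± 0.05), fell, and the aldehyde dehydrogenases ALD3 (2.58 ± 0.23) and ALD4 (1.06 ± 0.11) rose. In gluconeogenesis and the glyoxylate pathway 8 of 13 rose and 2 fell, with a median of 0.37 that turned to -0.06 with scaling between arrays, led by AGX1, the alanine-glyoxylate aminotransferase, with -2.14, -1.46 and -1.70 in RM11-1a, against -4.04, -4.03 and -4.00 in BY4716. MDH2, the cytosolic malate dehydrogenase, rose by 1.14 ± 0.10, with 0.35 in the other pair. CIT2, the peroxisomal citrate synthase and a target of retrograde signalling, fell by 0.80 ± 0.06, and ATO3, a putative ammonium exporter, fell by 1.31 ± 0.10. Beside these carbon genes, 59 of 80 genes for stress proteins and reserve carbohydrates rose and 9 fell, and their part in these differences was not tested.

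Some genes in the pathway of the LEU2 marker differed strongly, in both directions. Of 12 genes of leucine, isoleucine and valine synthesis, LEU2 included, 4 rose and 4 fell (median difference -0.02). The share called was 66.7%, against 63.0% of all genes tested. LEU1, the isopropylmalate isomerase one step before Leu2, had 0.22, 1.17 and 1.01 in RM11-1a, against -1.58, -1.53 and -1.58 in BY4716, a difference of 2.36 ± 0.22 (limma adjusted p = 6.24e-05). BAT1, the mitochondrial branched-chain aminotransferase, had 0.85, 1.18 and 0.98 in RM11-1a, against -1.07, -1.0 and -1.03 in BY4716, a difference of 2.04 ± 0.08, and BAT2, its cytosolic counterpart, had -1.75, -1.59 and -1.85 in RM11-1a, against 0.36, 0.19 and 0.16 in BY4716, a difference of -1.97 ± 0.08. No array of one strain reached the range of the other for these genes, as for 70.0% of all genes tested. LEU1 was lowest on RM11-1a array 7. LEU4, the main isopropylmalate synthase (0.20 ± 0.11), and LEU3, the activator of the pathway (0.02 ± 0.04), were not called. In YLK806 minus YLK804, where LEU2 differed by -4.67, LEU1 differed by 2.82, BAT1 by 2.28 and BAT2 by -1.76. Of 9 lysine genes, LYS2, the marker of BY4716, rose as given above, LYS12 (-0.52 ± 0.09, and -0.25 with scan day as a block), LYS20 (-0.44 ± 0.09) and LYS14 (-0.29 ± 0.05) fell, LYS5 rose (0.24 ± 0.04), and LYS1, LYS4, LYS9 and LYS21 were not called.

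Several nitrogen genes were lower in RM11-1a, and some were higher. The 4 ASP3 copies, which encode a cell wall asparaginase of the laboratory lineage, had the largest falls of the comparison, and since they are near-identical their probes count as 1 signal: ASP3-1 had -5.06, -4.95 and -5.23 in RM11-1a, against 0.38, 0.46 and 0.33 in BY4716. ASP1, the cytosolic asparaginase, had 0.02, -0.10 and -0.17 in RM11-1a, against 1.02, 0.94 and 1.05 in BY4716, a difference of -1.09 ± 0.06. GLN1, glutamine synthetase, fell by 1.02 ± 0.10 and ASN1, an asparagine synthetase, by 0.85 ± 0.04, whereas GDH1, the main glutamate dehydrogenase of ammonium assimilation, rose by 0.57 ± 0.04. The glutamate, glutamine and asparagine list counted 1 rise and 9 falls of 16, 4 of them the ASP3 copies. Among genes under nitrogen catabolite repression, 7 rose and 10 fell of 23. Their median difference was -0.07, and 0.05 with scan day as a block. GAP1, the general amino acid permease, had -2.40, -2.33 and -2.31 in RM11-1a, against -0.94, -0.99 and -0.93 in BY4716, a difference of -1.39 ± 0.04, DUR3, the urea transporter, fell by 1.1 ± 0.07 and MEP2, the ammonium permease, by 0.49 ± 0.05, while UGA2 (0.78 ± 0.04) and UGA1 (0.61 ± 0.08) of gamma-aminobutyrate use rose. In arginine and proline metabolism 11 of 21 fell and 7 rose, the falls including ARG7 (-1.02 ± 0.04), PRO1 (-0.58 ± 0.07) and PRO2 (-0.56 ± 0.04). Aromatic amino acid genes counted 8 falls and 2 rises of 16, and serine, glycine and threonine genes 8 falls and 1 rise of 16, with SER1, the phosphoserine aminotransferase, falling by 0.92 ± 0.04. Of 7 histidine genes 5 fell. Sulfur genes fell at 13 and rose at 6 of 30. Among the rises, MET13, a methylenetetrahydrofolate reductase, had 0.29, 0.44 and 0.28 in RM11-1a, against -1.09, -1.13 and -1.05 in BY4716, a difference of 1.43 ± 0.05. SAH1, which clears S-adenosylhomocysteine, rose by 0.93 ± 0.04.

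The amino acid permeases with the largest differences moved in opposite directions. PUT4, the proline permease, had log2 ratios of -1.53, -1.31 and -1.66 in RM11-1a, against -4.16, -4.12 and -4.17 in BY4716, a difference of 2.65 ± 0.08, or 6.29-fold. TAT1, a permease for tyrosine, valine and other amino acids, had -2.55, -2.50 and -2.72 in RM11-1a, against -0.38, -0.34 and -0.29 in BY4716, a difference of -2.25 ± 0.06, or 4.77-fold lower. Both had the same direction in the other pair, with differences of 3.25 and -2.26. PTR2, the dipeptide transporter, had -2.85, -2.05 and -2.74 in RM11-1a, against -1.48, -1.61 and -1.60 in BY4716; its difference was -0.99 ± 0.19, -0.44 with scan day as a block, and -0.05 in the other pair. GNP1, a glutamine permease, fell by 0.90 ± 0.06 and BAP2, a leucine permease, rose by 0.64 ± 0.07. Of 35 amino acid and peptide transporters 14 rose and 8 fell (median difference 0.09); on Agilent's own log ratios 7 rose and 8 fell. Among drug and polyamine transporters, QDR2, a multidrug exporter of the major facilitator family, had -1.78, -1.71 and -1.95 in RM11-1a, against 0.76, 0.72 and 0.77 in BY4716, a difference of -2.56 ± 0.06, and its relatives QDR1 (-0.38 ± 0.05) and QDR3 (-0.48 ± 0.05) also fell. The ATP-driven exporters PDR15 (1.27 ± 0.11), YOR1 (0.92 ± 0.08) and SNQ2 (0.85 ± 0.06) and the exporter AQR1 (1.1 ± 0.06) rose. PDR12, the weak-acid exporter, fell by 0.48 ± 0.05, and the list had 13 rises and 7 falls of 28.

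The ENA genes for sodium pumps lie next to each other and were low in RM11-1a. ENA1 had -2.51, -2.51 and -2.74 in RM11-1a, against -0.01, -0.02 and -0.06 in BY4716, a difference of -2.56 ± 0.06, and ENA2 had -2.78, -2.73 and -2.94 in RM11-1a, against 0.40, 0.36 and 0.34 in BY4716, a difference of -3.18 ± 0.06. ENA5 had -1.28, -1.32 and -1.42 in RM11-1a, against 0.71, 0.69 and 0.72 in BY4716, and was well above background on 1 of the 3 RM11-1a arrays. The copies are near-identical in the laboratory strain, so their probes may share signal. Of 18 genes for sodium, potassium, calcium and proton transport, the ENA genes included, 6 rose and 6 fell: the sodium-proton antiporter NHA1 fell by 0.17 ± 0.04 and the calcium pump PMC1 rose by 0.27 ± 0.05.

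Of 16 genes of pyrimidine synthesis and uptake 5 rose and 5 fell (median difference -0.01), and for some of them the pairs of strains parted. URA1, the dihydroorotate dehydrogenase, had 1.38, 1.35 and 1.48 in RM11-1a, against -0.72, -0.83 and -0.72 in BY4716, and 1.11 in YLK806 and 1.47 in YLK804. URA4, the dihydroorotase, had 0.78, 0.85 and 0.89 in RM11-1a, against -0.50, -0.54 and -0.51 in BY4716, and 0.69 in YLK806 and 0.65 in YLK804. Both were above 0 on every RM11-1a and YLK array and below 0 on every BY4716 array. RIB4, the lumazine synthase of riboflavin synthesis, had 1.09, 1.19 and 1.19 in RM11-1a, against -0.43, -0.36 and -0.48 in BY4716, and 0.96 in YLK806 and 0.86 in YLK804, the same arrangement. URA1, URA3 and URA4 are known targets of the activator Ppr1, which responds to pathway intermediates. URA3 itself was low in RM11-1a (-2.42, -2.42 and -2.63 in RM11-1a, against 1.40, 1.38 and 1.35 in BY4716), and -3.04 in YLK806 and -3.47 in YLK804. The difference between the pairs was called for URA1 (2.53 ± 0.10, limma adjusted p = 9.53e-06), URA4 (1.31 ± 0.08, limma adjusted p = 9.81e-05) and RIB4 (1.48 ± 0.10, limma adjusted p = 0.000209). For FUI1, the uridine permease, the parental difference was 1.42 ± 0.08 and the YLK difference 0.59. For URA2, the first enzyme of the pathway, they were 0.88 ± 0.05 and 0.46, and for URA10, an orotate phosphoribosyltransferase, 1.48 ± 0.11 and 1.61. Purine genes had 14 falls and 4 rises of 22 and a median of -0.28. IMD2, an IMP dehydrogenase of GTP synthesis, had 0.93, 1.11 and 0.77 in RM11-1a, against -0.23, -0.23 and -0.27 in BY4716, a difference of 1.18 ± 0.08, whereas its paralogue IMD3 had -0.55, -0.51 and -0.70 in RM11-1a, against 0.27, 0.22 and 0.34 in BY4716, a difference of -0.86 ± 0.06, and IMD4 was not called (0.02 ± 0.07).

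**Figure D3:**
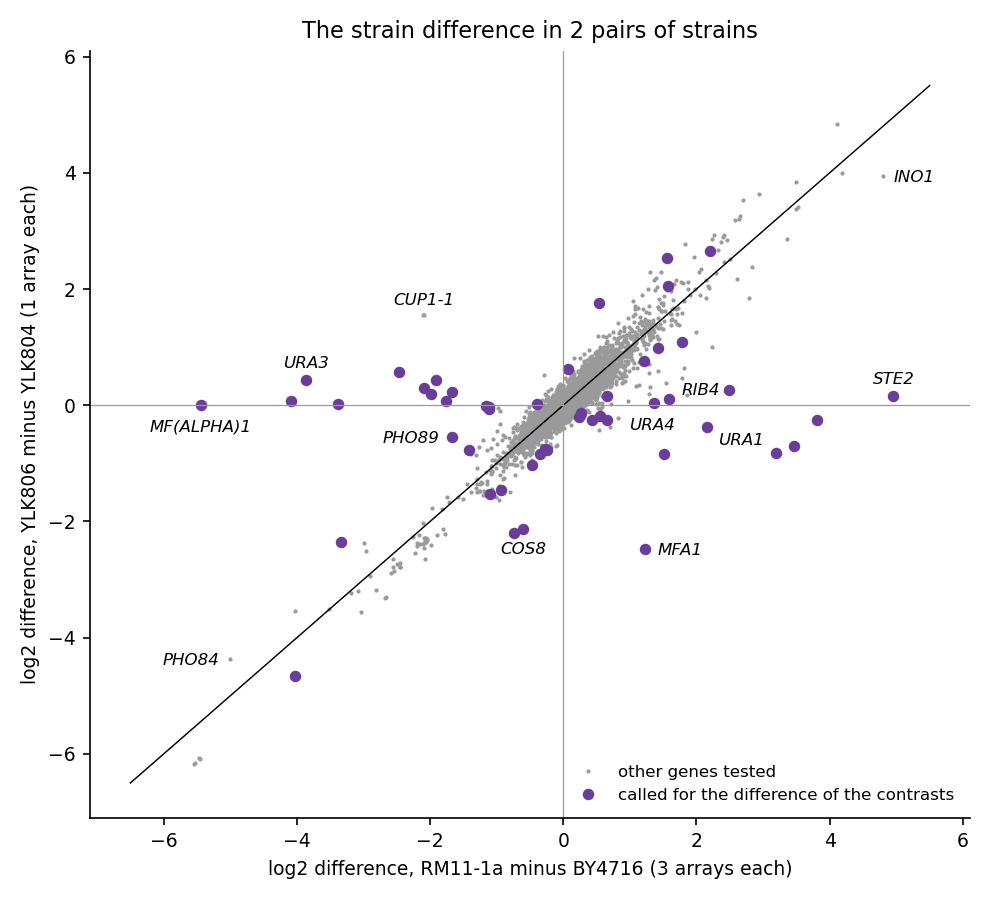
Log2 difference of YLK806 minus YLK804 (y axis, 1 array each) against RM11-1a minus BY4716 (x axis, 3 arrays each) for 5863 genes, with the 50 genes called for the difference of the contrasts as large points and the line of equality. Most genes follow the line, while URA1, URA4 and RIB4 lie near 0 on the y axis and CUP1-1 has opposite signs.

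Iron genes were higher in RM11-1a but uneven among its arrays. HMX1, the heme oxygenase that releases iron, had 1.39, 0.25 and 0.58 in RM11-1a, against -2.75, -2.65 and -2.45 in BY4716, a difference of 3.36 ± 0.26 (limma adjusted p = 2.52e-05). ARN1, a siderophore transporter, had 1.64, -0.23 and 0.21 in RM11-1a, against -1.93, -1.97 and -1.19 in BY4716, a difference of 2.24 ± 0.46 (limma adjusted p = 0.00365). TIS11, which degrades mRNAs of iron-using proteins when iron is low, had 2.09, -0.29 and 0.57 in RM11-1a, against -1.41, -1.32 and -0.49 in BY4716, a difference of 1.86 ± 0.55 (limma adjusted p = 0.0204). Array 7 was the highest RM11-1a array for each of them, by more than 1 log2 unit for ARN1 and TIS11. TIS11 differed by 1.22 without RM11-1a array 7 and by 1.03 with scan day as a block, and its call was lost without BY4716 array 7 (1.70) or array 9 (1.74). The ferric reductase gene FRE1 rose by 1.82 ± 0.45 (0.84 with scan day as a block). FRE2, another ferric reductase, rose by 1.78 ± 0.64, with 0.93 without RM11-1a array 7 and 0.69 with scan day as a block, and lost its call without any one BY4716 array (1.75 to 1.81). The cell wall mannoproteins FIT2 (1.30 ± 0.59) and FIT3 (1.54 ± 0.68) were not called, but were called at 0.52 and 0.62 without RM11-1a array 7. Of 31 iron genes 14 rose and 2 fell (median difference 0.53). The median log2 ratio of the list was 0.70, -0.21 and -0.18 in RM11-1a, against -0.49, -0.44 and -0.25 in BY4716, and -0.30 in YLK806 and -0.48 in YLK804. Without RM11-1a array 7, 17 rose and 2 fell, with a median of 0.26, and without BY4716 array 7 or without BY4716 array 9, 7 rose and 2 fell. The transcription factor AFT1 (0.07 ± 0.09) was not called. Unlike the others, ARN2, another siderophore transporter, was not well above background on any RM11-1a array and was at least 2.09-fold lower, and FET4, a low-affinity iron transporter, was at least 1.73-fold lower.

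The copper metallothionein genes CUP1-1 and CUP1-2, identical copies that count as 1 signal, were lower in RM11-1a and varied within BY4716. CUP1-1 had -3.40, -3.53 and -3.77 in RM11-1a, against -1.18, -0.90 and -2.33 in BY4716, a difference of -2.09 ± 0.33 (limma adjusted p = 0.00105), and 0.45 in YLK806 and -1.09 in YLK804. BY4716 array 11 was the lowest of its strain, and YLK806 was above every other array named here. The difference between the pairs had a limma adjusted p of 0.0753 and was not called. CTR1, the high-affinity copper transporter, had 0.58, -0.11 and 1.18 in RM11-1a, against -0.24, -0.24 and 0.03 in BY4716 and was not called (0.70 ± 0.29, limma adjusted p = 0.0652), though it was without RM11-1a array 9 (1.03). Among zinc and manganese genes, ZRT1, the high-affinity zinc transporter, rose by 0.91 ± 0.22 and SMF1, a manganese transporter, by 0.92 ± 0.07, while the zinc regulator ZAP1 fell by 0.40 ± 0.05. There 9 of 20 rose and 4 fell.

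**Figure D4:**
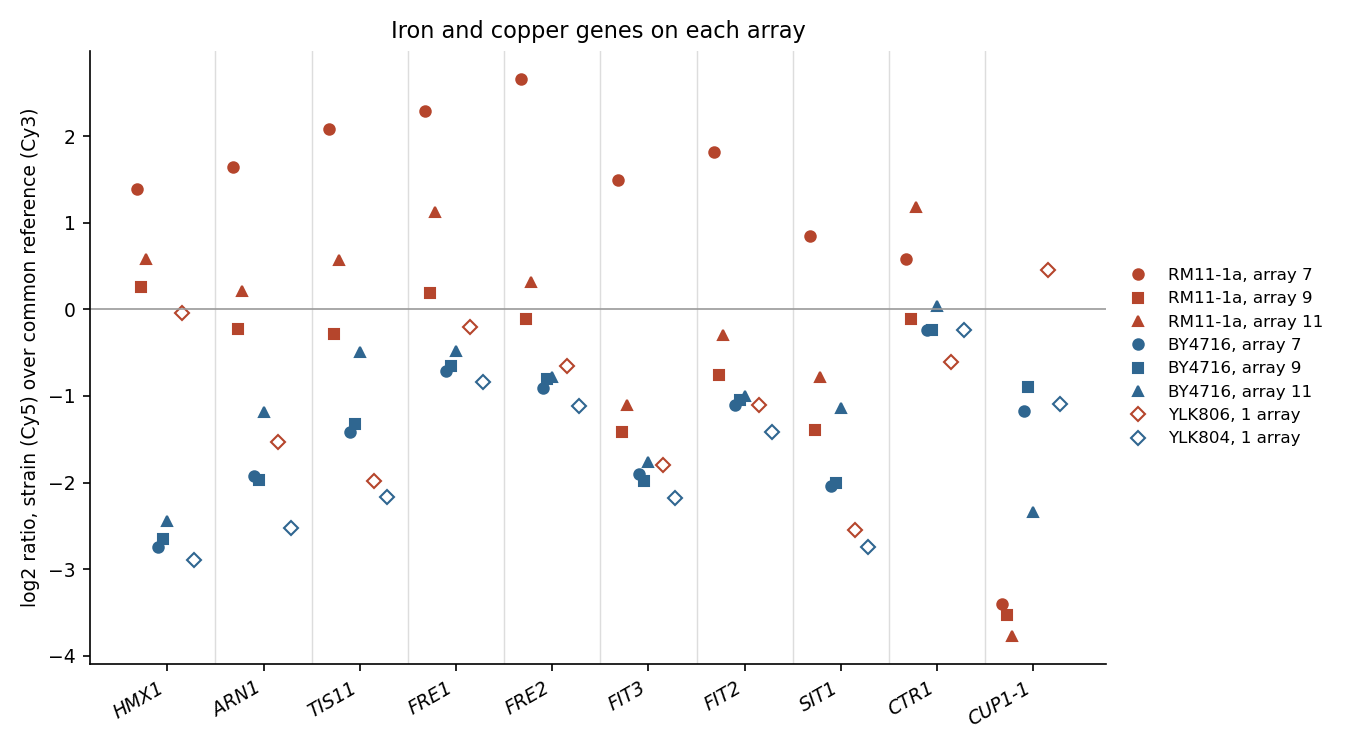
Log2 ratios of strain over common reference for 10 iron and copper genes, with filled points for arrays of RM11-1a and BY4716 and open diamonds for YLK806 and YLK804. RM11-1a array 7 lies above the other RM11-1a arrays for the iron genes shown, and CUP1-1 is lower in RM11-1a than in BY4716 but highest in YLK806.

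Genes of daughter cell separation fell in RM11-1a. These encode enzymes that dissolve the septum from the daughter's side, and limma called none of 13 higher (0 also at an unadjusted p under 0.05) and 11 lower, with a median of -1.09. CTS1, the endochitinase, had -2.15, -1.85 and -2.32 in RM11-1a, against 0.77, 0.86 and 0.78 in BY4716, a difference of -2.91 ± 0.11. SUN4, a glucanase, had -2.34, -2.29 and -2.59 in RM11-1a, against 0.70, 0.40 and 0.59 in BY4716, a difference of -2.97 ± 0.10. AMN1, an inhibitor of exit from mitosis whose allele is known to set clumping in RM11-1a, had -0.75, -0.72 and -0.85 in RM11-1a, against 0.52, 0.29 and 0.60 in BY4716, a difference of -1.24 ± 0.08. The daughter-specific repressor ASH1 (0.02 ± 0.06) was not called. Among cell wall genes there were 23 rises and 4 falls of 36 and a median of 0.29. CWP1, a mannoprotein of the birth scar, had 0.88, 0.90 and 0.80 in RM11-1a, against -1.28, -1.19 and -1.40 in BY4716, a difference of 2.15 ± 0.06. YGP1, a secreted glycoprotein, rose by 2.79 ± 0.17, and SED1, SPI1 and PIR3, wall proteins, by 1.50 ± 0.12, 1.22 ± 0.13 and 1.19 ± 0.15. GSC2, the stress-induced glucan synthase, rose by 0.66 ± 0.06, with -0.26 in the other pair. Flocculin and adhesion genes counted 2 rises and 4 falls of 9, and their median, -0.04, turned positive with median centring. FLO10 fell by 0.34 ± 0.04 and FLO5 by 0.32 ± 0.03.

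The outermost 5 places of the chromosome ends held 31 of the 103 falls of at least 2-fold that could be placed, while 12 more had no place in the RefSeq gene order. The 8 genes of the Y prime helicase list, which repeat at many telomeres with near-identical sequence, all fell, with differences of -2.05 to -2.50, and their probes count as few independent signals. The COS genes, which encode subtelomeric membrane proteins involved in sorting to the vacuole, divided into 5 rises and 5 falls of 12. COS6 had -1.80, -1.70 and -1.97 in RM11-1a, against 0.91, 0.82 and 0.83 in BY4716, a difference of -2.68 ± 0.07, and COS111 had 0.17, 0.23 and 0.14 in RM11-1a, against -1.34, -1.24 and -1.37 in BY4716, a difference of 1.50 ± 0.05. COS8 was not well above background on any RM11-1a array and was at least 1.47-fold lower, and COS12 was not well above background in BY4716 and was at least 1.5-fold higher. In the DUP240 family of membrane proteins 6 of 8 fell and 1 rose, DFP4 falling by at least 2.21-fold, KTD1 by at least 2.1-fold and DFP2 by at least 1.84-fold. Counted by position, 27.7% of the 141 tested genes among the first 5 from a chromosome end were called and at least 2-fold different, 8 higher and 31 lower. Among the genes in places 6 to 10 the share was 10.6%, with 11 higher and 4 lower, and in places 11 to 20 it was 7.87%. From place 21 inward it was 4.74% of 4953 genes, with 174 higher and 61 lower. Neighbouring genes and repeats are not independent, so no test was made.

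**Figure D5:**
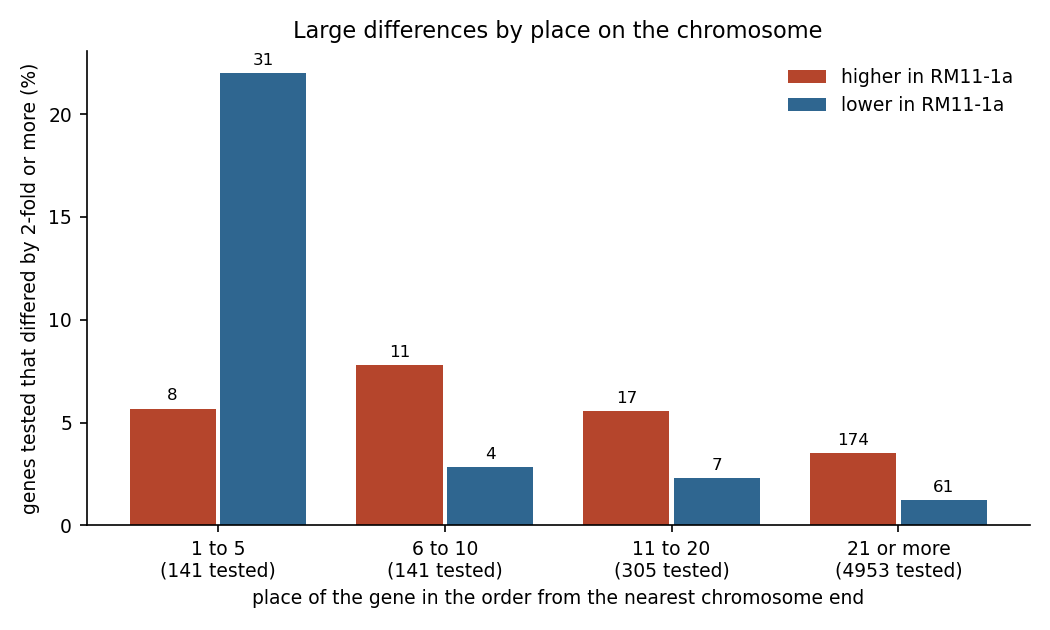
Share of tested genes called and at least 2-fold different, by place from the nearest chromosome end in gene order, split into genes higher and genes lower in RM11-1a. The first 5 places hold 27.7%, mostly lower in RM11-1a, and the genes from place 21 inward hold 4.74%, mostly higher.

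Adjacent genes formed 72 runs of 2 or more called in the same direction with an absolute difference of at least 0.58, 13 of them of 3 or more. The longest, 7 genes on chromosome XII, held the ASP3 copies with YLR156W, YLR159W and YLR161W. Next came 4 genes at the end of chromosome VIII, YHL050C (-1.26), YHL049C (-0.72), COS8 and ARN2, all lower. Runs of 3 on chromosome I (UIP3, KTD1 and DFP2) and at an end of chromosome II (YBL113C, YBL112C and YBL111C) were lower as well. Signal shared between the genes at these chromosome ends and the Y prime genes was not examined. Another run on chromosome II, of ECM13 (0.65), FUI1 (1.42) and PRE7 (0.72), and one of PET9 (1.29), YBL029C-A (0.60) and YBL029W (0.66), were higher. PET9 encodes the main mitochondrial ADP/ATP carrier.

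Some genes next to the marker loci also differed, as did 63.0% of all genes tested. TIM9, a mitochondrial import chaperone gene beside URA3, rose by 0.54 ± 0.05, with 1.76 in the other pair, and the difference between the pairs was called (limma adjusted p = 0.00125). GEA2, on its other side, fell by 0.40 ± 0.06. Beside LEU2, NFS1, the cysteine desulfurase, rose by 0.71 ± 0.05 and YCL021W-A, well above background on 1 RM11-1a array, fell by 1.09 ± 0.03. Beside LYS2 lay TKL2, described above, and beside HO, GCS1 fell by 0.55 ± 0.04. On the other side of LYS2, RAD16 rose by 0.17 ± 0.04, and on that of HO, SSB1 was not called (-0.06 ± 0.05). HIS3 was not called (-0.04 ± 0.04). Of its neighbours, MRM1 rose by 0.16 ± 0.06 and DED1 was not called (-0.07).

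Genes of the growth machinery were mostly lower in RM11-1a, by small amounts. Of 85 ribosome biogenesis genes limma called none higher (0 also at an unadjusted p under 0.05, and 1 called with scan day as a block) and 67 lower (median difference -0.29), with the largest fall, 0.79, at NOP4. LSG1, a GTPase of large-subunit export, fell by 0.77 ± 0.04 and DBP2, a helicase, by 0.75 ± 0.08. Of 39 genes for RNA polymerases I and III 25 fell and 3 rose. RPB5, a subunit shared by all nuclear RNA polymerases, had -0.35, -0.50 and -0.43 in RM11-1a, against 0.62, 0.68 and 0.71 in BY4716, a difference of -1.10 ± 0.05, the largest of that list. Cytosolic aminoacyl-tRNA synthetase genes fell at 18 of 22, with a median of -0.35, THS1 by 0.60 ± 0.04 and ALA1 by 0.60 ± 0.04. Translation factors fell at 20 and rose at 6 of 43. There the rises included both genes for eIF5A, HYP2 (0.83 ± 0.05) and its hypoxic form ANB1 (0.78 ± 0.04), which may cross-hybridise. Cytosolic ribosomal protein genes did not follow: 38 of 138 rose and 18 fell (median difference 0.06, negative with median centring), RPS17B rising by 0.89 ± 0.08 and RPS6A falling by 0.59 ± 0.04. With scan day as a block their median difference was -0.03.

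Of 58 transcription factors measured, 22 were higher and 20 lower (median difference 0.04). The share called was 72.4%, against 63.0% of all genes tested, where 33.1% were higher and 29.9% lower. ADR1, an activator of genes repressed by glucose, had -1.11, -1.0 and -1.13 in RM11-1a, against -2.84, -2.74 and -2.86 in BY4716, a difference of 1.73 ± 0.05. HAP4, the limiting subunit of the respiratory activator, rose by 1.23 ± 0.07, and CAT8, the activator of gluconeogenic genes, by 0.80 ± 0.09. HAP1, the heme-responsive activator that carries a transposon insertion in the laboratory lineage, had -0.84, -0.85 and -1.03 in RM11-1a, against -0.0, -0.06 and 0.00 in BY4716, a difference of -0.89 ± 0.06. CBF1, a centromere-binding factor that also serves sulfur genes, fell by 0.65 ± 0.05. Among other loci known to differ in sequence between the laboratory lineage and RM11-1a, IRA2, a negative regulator of Ras, fell by 0.45 ± 0.04, MKT1 by 0.43 ± 0.05, BUL2 by 0.46 ± 0.04 and GPA1, the pheromone G protein subunit, by 0.26 ± 0.04. SSD1, an RNA-binding protein gene, rose by 0.28 ± 0.04 and CAT5, of ubiquinone synthesis, by 0.65 ± 0.05. END3 (-0.0 ± 0.07), MIP1 (-0.09 ± 0.06) and SAL1 (0.07 ± 0.04) were not called.

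Of the remaining genes with the largest differences, some are little characterised. REE1, a gene linked to control of an enolase gene, had -2.77, -2.78 and -3.01 in RM11-1a, against 0.73, 0.64 and 0.61 in BY4716, a difference of -3.52 ± 0.07, or 11.4-fold lower, with -3.50 in the other pair. SCM4, a mitochondrial outer membrane protein, had 0.80, 1.23 and 1.14 in RM11-1a, against -1.51, -1.36 and -1.35 in BY4716, a difference of 2.46 ± 0.11. SUE1, needed for breakdown of unstable cytochrome c, had 0.08, -0.35 and 0.02 in RM11-1a, against -2.57, -2.45 and -2.47 in BY4716, a difference of 2.41 ± 0.11. No array of one strain came near the other for these genes. YPL088W, a putative aryl alcohol dehydrogenase, rose by 2.20 ± 0.03, the aryl alcohol dehydrogenase relatives AAD15 by 1.47 ± 0.06 and AAD4 by 1.23 ± 0.04, and GOR1, a glyoxylate reductase, by 2.29 ± 0.07. CYB2, the lactate dehydrogenase that feeds cytochrome c, rose by 2.32 ± 0.17, YHB1, the flavohemoglobin, by 2.70 ± 0.08 and GPG1 by 2.19 ± 0.14. YCL027C-A rose by 2.17 ± 0.10, and YBR116C by 2.95 ± 0.24. YBR116C overlaps TKL2, so their signals cannot be told apart. HMRA1, named for the silent mating-type cassette, was not well above background in BY4716 and was at least 5.61-fold higher. It differed by 0.26 in the other pair. Which mating-type locus its signal came from was not examined. Among the falls, AI5_ALPHA, a reading frame in an intron of the mitochondrial COX1 gene, was not well above background on any RM11-1a array and was at least 8.21-fold lower. YMR158C-B (-2.99 ± 0.16), YER138W-A (-2.67 ± 0.10) and the subtelomeric YIL177C (-2.59 ± 0.05) and YJL225C (-2.55 ± 0.05) fell as well. YIL177C and YJL225C may share signal with each other and with the Y prime genes, which was not examined, so they are not counted here as further separate signals.

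The other pair of strains gave a view of the same backgrounds on arrays other than the parental ones, although these share the reference pool and the strains carry exchanged SAL1 alleles. The YLK arrays also entered the same fit and the filter that decided which genes were tested. Of 3694 called genes with a value there, 3537 (95.7%) had the same sign in YLK806 minus YLK804. LEU2 (-4.67), LYS2 (4.85) and HO (-3.53) differed there in the direction of the parents. Over 5863 genes, the differences of the pairs had a Pearson correlation of 0.884, given as a description. Among called genes of at least 2-fold, 316 of 334 kept their sign. The 18 of opposite sign were 11 mating-type genes, URA1, URA3, CUP1-1, CUP1-2, AFB1, YCR041W and YCR097W-A. The difference between the pairs itself was called for 50 genes (0.853%), 18 of which belong to the mating type, pheromone, stress or marker lists, and 22 had opposite signs. The largest were MF(ALPHA)1 (-5.45), the alpha pheromone gene, and STE2 (4.80), its receptor. COS8 was among the others, with a level in RM11-1a that is not well above background: its log2 ratio was -0.36, -0.40 and -0.50 in RM11-1a, against 0.18, 0.21 and 0.16 in BY4716, and -0.63 in YLK806 and 1.49 in YLK804. SUL1, the sulfate permease, differed by -1.41 ± 0.04 between the parents and by -0.78 in the other pair. The single YLK arrays are assumed to vary like the parental arrays in that test.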

How the data were processed

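Each array was deposited as Agilent Feature Extraction output (per the file headers, version 8.5.1.1 for the parental strains and version 9.1.3.1 for the YLK pair) with spot and background intensities, and with a log10 ratio of Cy5 over Cy3 that, per the file headers, the software had background-subtracted and dye-normalised. The series' value table holds the same ratios as log2 values deposited by the authors. Per the labels' protocols, total RNA came from hot acid phenol extraction followed by a column kit.

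For the main setting, background was corrected with normexp (offset 50), ratios were normalised by loess within each array with control spots at weight 0, outlier spots were dropped, and spots were averaged per systematic name (limma 3.58.1, R 4.3.3). Testing required that a gene be well above background in Cy5 or Cy3 on 3 or more of the 9 arrays. One limma fit of 5 strain means over the 9 arrays gave both contrasts (4 residual and 3.38 prior degrees of freedom), with Benjamini-Hochberg adjustment over 5865 genes and a threshold of 0.05. A gene not well above background on any array of a strain has a bound instead of a fold, and its differences rest on levels at background. On simulated data for RM11-1a minus BY4716 over 5865 genes, 92%, 97% and 100% of genes changed 1.5-, 2- and 4-fold were recovered, with estimates at 0.820, 0.803 and 0.750 times the true log2 change, and 0.194% of unchanged genes were called. Folds may thus be understated on this scale. The simulation changed only 50, 100 and 50 genes by 1.5-, 2- and 4-fold, against 3696 genes called in the data. Its noise was drawn independently for each array, so these rates may not hold for the data. Symbols came from RefSeq, which matched 5756 of 6256 names.

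The genes and gene lists were chosen with earlier results of these data known. Named genes include the 20 largest rises and 20 largest falls among called genes whose parental arrays did not overlap, outside the mating-type, respiration, stress and marker lists. The others are list members, markers and their 2 neighbours on either side, the 6 longest runs, and the 10 largest differences between the pairs. Position near chromosome ends was counted in gene order, since the files name no genome build, and promoter sequence was not used here. Alternatives were Agilent's ratios, another offset, median centring, scaling, stricter and no filters, trended robust variance, the parental arrays alone, scan day and replicate blocks, each array left out, and arrays of one slide averaged.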

Additional observations from a re-analysis of the deposited data

Results flagged for a closer look

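In 29 results the difference between RM11-1a and BY4716 was not matched by the difference between YLK806 and YLK804, by limma's test of the difference of the 2 contrasts (parental minus YLK pair, adjusted p under 0.05 over all genes tested). For 9 mating-type genes the value was large: 4.80 for STE2, 4.17 for BAR1, 4.06 for STE6, 4.01 for MFA2 and 3.70 for MFA1, and -5.45 for MF(ALPHA)1, -4.16 for STE3, -3.41 for SAG1 and -3.04 for MF(ALPHA)2. Related reading frames at or near the mating-type loci differed too, with 2.23 for HMRA1, -1.89 for YCR097W-A and -1.84 for YCR041W, as did AFB1 with -2.35. By design, YLK806 and YLK804 are of the same mating type and both lack URA3, whereas the parents differ in both.

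The second set holds URA3 (-4.29), its neighbour TIM9 (-1.22), the pyrimidine genes URA1 (2.53) and URA4 (1.31), and RIB4 (1.48). Phosphate genes gave -1.13 for PHO89 and -0.99 for SPL2, and the sulfate permease SUL1 gave -0.63. The LEU2 marker (0.64) and its neighbour YCL021W-A (0.43), not well above background on any or on all but 1 RM11-1a array, also differed. The SAL1 gene, whose alleles were exchanged in the YLK strains, gave -0.55. The remaining values among the 29 were 1.52 for COS8, 0.92 for GSC2, -0.44 for YPL088W, -0.41 for SNZ2, a vitamin B6 gene, and 0.40 for EPT1, an ethanolamine phosphotransferase. HMRA1 in BY4716, and LEU2, SPL2, COS8 and MF(ALPHA)2 in RM11-1a, were not well above background on any array, so their values rest on levels at background and their sizes are not exact. The call held under every alternative with a value for 20 of the 29. It was lost under 15 alternatives for EPT1, 13 for SNZ2, 12 for YPL088W, 10 for YCL021W-A, 9 for LEU2, 7 for SPL2, 5 for SAL1, 3 for SUL1 and 2 for GSC2. Each YLK strain has 1 array, so none of these was checked on a further array of that pair, and causes were not tested. No group here had 4 or more arrays, so single arrays were not tested as outliers.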

How the results depend on the processing

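Across 18 alternatives the number of called genes, 3696 in the main setting, lay between 3156 and 3763, and 246 of 250 called genes named here kept their call and direction under every alternative that tested them, the exceptions being ARE1, ITR2, FRE2 and TIS11. Not all alternatives are separate checks. The parental arrays alone had to give the same 3696 calls, since strains with 1 array add no residual spread, and the series' value table repeats Agilent's ratios. Agilent's deposited log ratios, and the series' value table made from them, gave 611 genes of at least 2-fold against 335. The 50 calls for the difference between the pairs were the least stable: 81 with scaling between arrays, 28 with probes well above background in both channels on all 6 arrays, 160 with scan day as a block (48 of the 50 among them), and 30 with the arrays of one slide averaged, an alternative chosen after seeing the data. Leaving out each array in turn gave 3156 to 3628 called genes, 323 to 347 of at least 2-fold and 28 to 63 for the difference, with 29 without BY4716 array 7 and 28 without BY4716 array 9. Same-numbered arrays did not pair (correlations of their deviations from the strain means of -0.21 for number 7, 0.14 for number 9 and -0.18 for number 11). With the replicate number as a block, 3401 genes were called, 336 of them at least 2-fold, and 27 for the difference. The share of called genes that were higher was 48.5% to 53.2%, and among those of at least 2-fold 58.9% to 70.4% (65.7% in the main setting). Called genes of the other sign numbered 16 with median centring, 7 with scaling between arrays and 11 with scan day as a block. PPX1, not called in the main setting, was lower with scan day as a block (-0.165), which rests on the scan day shared by the strains. For other genes not called in the main setting, that block gave 0.989 for BIO2, 0.349 for LEU4, 0.254 for ERG1, 0.212 for IMD4 and 0.176 for HXT3. It gave 0.281 for FIT2, 0.566 for FIT3, -0.343 for PPN1 and -0.205 for END3. Genes not called in the main setting but called without 1 RM11-1a array were BIO2, FIT2, FIT3, LEU4 and PHO90 (array 7), CTR1, FIT2, FIT3, LYS9 and PPX1 (array 9) and HXT3 (array 11). List medians had the same sign under every alternative for 47 of 58 lists and under every scaling for 54; gluconeogenesis, flocculins, cytosolic ribosomal proteins and meiosis turned with scaling or median centring. The causes were not tested. Signal limits the bounds: 225 genes were well above background in 1 strain only and 420 in neither.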

Other observations

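Among genes of protein handling, rises outnumbered falls in the lists given here. Of 33 proteasome genes 16 rose and 3 fell (median difference 0.11), RPN4, the activator of proteasome genes, by 0.45 ± 0.04. Of 45 genes for entry into the secretory pathway and its vesicle coats 24 rose and 7 fell, the rises including OST5 of the oligosaccharyltransferase (0.79 ± 0.05) and the disulfide isomerase gene PDI1 (0.58 ± 0.05). The vacuolar proteases PRB1 (1.05 ± 0.07) and PEP4 (0.89 ± 0.05) rose, with ATG8 (0.53 ± 0.06) and ATG1 (0.54 ± 0.06) of autophagy, in a list of 12 rises and 3 falls of 24. MNN1, a Golgi mannosyltransferase, had log2 ratios of 0.45, 0.50 and 0.64 in RM11-1a, against -0.50, -0.47 and -0.48 in BY4716, a difference of 1.02 ± 0.05, while 10 of the 35 glycosylation genes rose and 8 fell. These counts stand beside 33.1% higher and 29.9% lower over all genes tested.

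Among peroxisomal genes 20 of 42 rose and 8 fell (median difference 0.09), with POT1, the thiolase of fatty acid oxidation, at 1.05 ± 0.09 and POX1, the acyl-CoA oxidase, at 0.97 ± 0.06, whereas the import gene PEX22 fell (-0.86 ± 0.05). In vitamin pathways, BNA2, the first enzyme of nicotinamide nucleotide synthesis from tryptophan, rose by 1.23 ± 0.04 and the nicotinamidase PNC1 by 0.87 ± 0.08, while SNZ1 of vitamin B6 synthesis fell by 0.74 ± 0.06. VHT1, the biotin transporter, rose by 0.71 ± 0.10, and BIO2, of biotin synthesis, was not called (0.64 ± 0.27). Of 38 cell cycle and replication genes 17 fell and 10 rose, with differences between -0.47 for the cyclin CLB1 and 0.75 for RNR2, a ribonucleotide reductase subunit. RIM4, a regulator of meiosis, rose by 0.94 ± 0.06 in a list of 21 genes with 5 rises and 5 falls.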
